A study of Mus musculus with 19 samples.

Results

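The collagen genes encode the chains of the collagens, the main fibrous proteins of the extracellular matrix. Members were the rows of the deposited table whose symbol has the form of Col, a type number, the letter a and a chain number. The rule gave 43 of the 36172 genes in the table, of which 38 had a mean of at least 1 CPM (counts relative to library size, with TMM scaling) over all libraries and are called expressed here. The expressed genes comprised 10 fibrillar chains, 8 basement membrane chains and 20 chains of other kinds.

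Collagen chains fold in the endoplasmic reticulum as triple helices, which need prolyl and lysyl hydroxylases and chaperones, and most fibrillar chains lose their end peptides outside the cell. Fibrillar collagens build the fibres of the ovarian stroma and of the theca around follicles. Type IV collagen forms the sheet of the basement membrane that separates granulosa cells from the theca, and type VI collagen forms beaded filaments between fibres and cells. Beyond these, fibril-associated collagens decorate fibres, and transmembrane collagens sit in the cell surface.

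RNA of whole ovaries from female mice of the inbred strain C57BL/6 was sequenced at 4 ages, with 5 libraries each at 3, 6 and 9 months and 4 at 12 months. No other treatment or genotype is given in the labels. Each library held between 10851519 and 14302207 estimated counts. Separate mice are not stated for the libraries of an age, so the p-values below reflect spread between libraries that may be technical. Comparisons with 3 months share the same 5 libraries, and in a whole organ a change in the number of cells and a change in RNA per cell cannot be told apart.

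The ovary label was checked against markers. Transcripts of the oocyte factor Gdf9 were found in every library, at 3.82 to 79.5 CPM, and those of the granulosa cell transcription factor Foxl2 at 83.7 to 188 CPM. Some libraries stood apart by markers of other tissues, and the source of these transcripts was not tested. Summed lymph node markers (6 genes) reached 85.5 and 127.3 CPM in 9 month replicates 1 and 2 and 191.0 CPM in 12 month replicate 2, against at most 11.9 CPM elsewhere. The liver gene Alb stood at 44.0, 109.3 and 362.0 CPM in 9 month replicates 1, 2 and 3, against at most 16.2 CPM in the other libraries. Summed oviduct markers (4 genes, mostly Ovgp1) were found in every library and reached 6331 CPM in 9 month replicate 2 and 5225 and 4194 CPM in 12 month replicates 1 and 3, against 1762 to 3626 CPM elsewhere. Summed adipocyte markers (5 genes) reached 1038 CPM in 9 month replicate 1, against at most 539 CPM elsewhere. Results at 9 and 12 months are therefore also given without these libraries where that matters.

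Transcripts of the whole family summed to 5537 ± 451 CPM at 3 months, 5869 ± 714 CPM at 6 months, 7971 ± 1033 CPM at 9 months and 6347 ± 615 CPM at 12 months (SD, n = 5, 5, 5 and 4). The lowest 9 month library, replicate 5 at 6410 CPM, stood above every 3 month library, the highest of which held 6056 CPM. Fibrillar chains made up most of the difference, with summed levels of 4518 ± 746 CPM at 9 months, against 2834 ± 293 CPM at 3 months. Basement membrane chains summed to 1706 ± 326 CPM at 9 months and 1397 ± 189 CPM at 3 months, and their ranges overlapped. The remaining chains summed to 1748 ± 216 CPM at 9 months and 1306 ± 41.0 CPM at 3 months, with no overlap. The whole family sum of 9 month replicate 5 lay within the ranges of 6 months, 5092 to 6505 CPM, and 12 months, 5613 to 6901 CPM. In replicate 4, the other 9 month library left when those high in Alb are dropped, the family summed to 7997 CPM. No test was run on these sums.

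**Figure D1:**
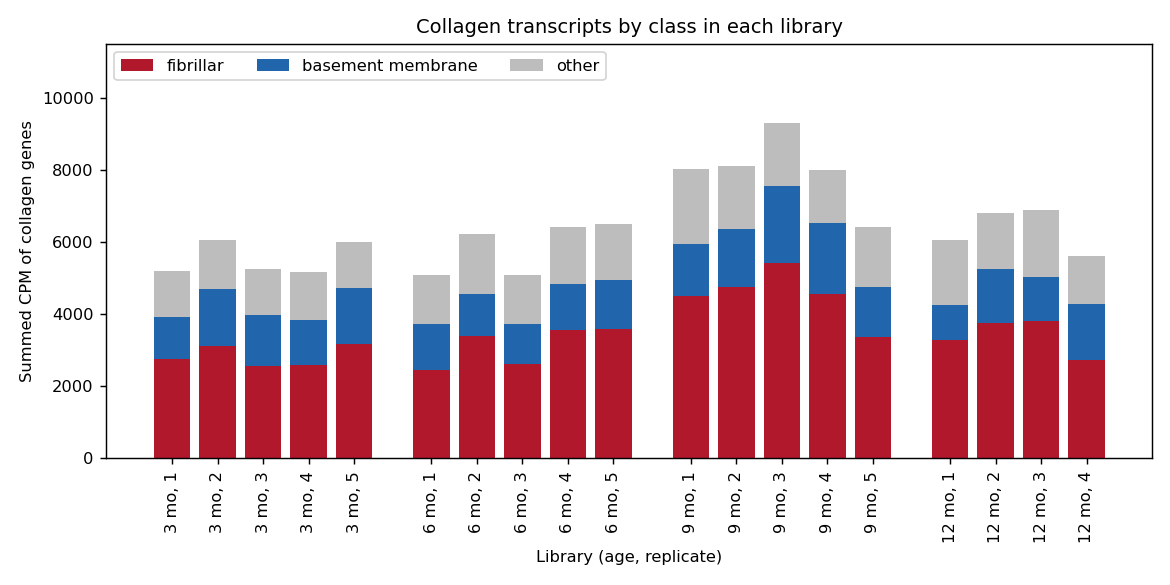
Summed CPM (vertical axis) of fibrillar, basement membrane and other collagen genes, stacked, in each of the 19 libraries (horizontal axis, by age and replicate). Bars of 4 of the 5 libraries of 9 months are taller than every other bar, and the fibrillar segment is the largest in every library.

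A few genes carried most collagen transcripts. Col3a1, Col1a2 and Col1a1 together made up 41% to 52.9% of the family sum in a library, with a median of 47.6%. Per kilobase of exon, Col3a1 ranked first with a mean level of 237 CPM per kb, followed by Col1a2 with 224, Col6a1 with 116, Col4a1 with 98.6 and Col1a1 with 92.2 CPM per kb. At the other end, Col11a2, a chain of cartilage type XI collagen, had 0.28 CPM per kb. Col2a1, the main fibrillar collagen of cartilage, was not expressed by the rule and reached no more than 4.59 estimated counts in a library.

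At 12 months against 3 months, 8 of the 38 expressed genes rose and 6 fell by edgeR's quasi-likelihood test at an adjusted p under 0.05, which is 36.8% of them. Among all 15518 genes tested, 22.4% passed that threshold, 10.9% higher and 11.5% lower. The rising genes were Col1a1, Col5a1 and Col5a3 among the fibrillar chains, Col6a1, Col6a2 and Col6a3 of type VI, the fibril-associated Col16a1 and the transmembrane Col25a1. Those that fell were the fibrillar Col11a1, the type IV chains Col4a3, Col4a4, Col4a5 and Col4a6, and the fibril-associated Col9a2. The median log2 change of the 38 genes was 0.09, against 0.02 for all genes tested. Without the 3 libraries over 4000 CPM of oviduct markers, which leaves 2 of the 4 libraries of 12 months, the same 6 genes fell and none of the 8 rising genes was called, where 8.89% of all genes passed. In that fit Col25a1 changed by -0.055 (adjusted p = 0.928), and the other 7 kept a positive change, of 0.25 to 0.80, with adjusted p-values of 0.0697 to 0.534. The part of oviduct tissue in these rises was not tested.

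At 9 months against 3 months, 11 of the 38 genes rose and 4 fell (39.5%), where 25.0% of all genes tested passed, 11.3% higher and 13.6% lower. The median log2 change was 0.30 for the 38 genes and 0.01 for all genes. Without the 3 libraries high in Alb, which leaves 2 of the 5 libraries of 9 months, 7 genes rose and 4 fell, and 7.09% of all genes passed. Without the libraries over 5 CPM of the follicular dendritic and B cell gene Cr2, 12 rose and 4 fell, and 17.6% of all genes passed.

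For 19 of the 38 expressed genes the mean level was highest at 9 months, which is 50% of them, where 25.0% of all genes tested had their highest mean at that age. The highest mean lay at 3 months for 7 of the 38 (27.1% of all genes), at 6 months for 5 (17.6%) and at 12 months for 7 (30.3%). Of the fibrillar genes 7 of 10 had their highest mean at 9 months, of the basement membrane genes 5 of 8 and of the others 7 of 20. All libraries entered these means, and the counts were not repeated without those high in Alb, lymph node markers or oviduct markers. At 12 months against 9 months edgeR called 0 of the 38 and 0 of all genes at an adjusted p under 0.05. At an unadjusted p under 0.05, 11 collagen genes were lower and 0 higher at 12 months, where 13.9% of all genes passed, 6.66% lower. DESeq2 called 4 of the 38, all lower at 12 months, and 1.62% of all genes, 1.17% lower. With edgeR the smallest adjusted p among the 38 was 0.0564, for Col4a5 and Col14a1. Without the libraries high in Alb, or without those high in Cr2, edgeR again called 0 of the 38 and 0 of all genes.

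At 6 months against 3 months edgeR called 0 of the 38 genes, and 0.0193% of all genes, 0.0129% higher and 0.00644% lower. The smallest adjusted p among the 38 was 0.253, for Col11a1, with 5 genes higher and 3 lower at an unadjusted p under 0.05. DESeq2 called 1 of the 38, lower at 6 months, and 0.303% of all genes, 0.148% lower. Along a linear trend over the 4 ages, 10 genes rose and 5 fell, where 29.5% of all genes tested passed, 14.7% rising and 14.8% falling. The trend is given below as the log2 change over the span of 9 months.

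The same genes were also compared library by library. Every 12 month library stood above every 3 month library for 5 of the 38 genes and below for 6, where 16.5% of all genes tested did not overlap, 6.72% above and 9.75% below. Every 9 month library stood above every 3 month library for 9 genes and below for 4, where 14.9% of all genes did not overlap, 5.52% above and 9.42% below. Of the 38 genes, 19 passed in at least 1 of the comparisons of 12 or 9 months with 3 months or in the trend, which is 50% of them, where 37.0% of all genes tested did, and 19 passed in none of these.

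**Figure D2:**
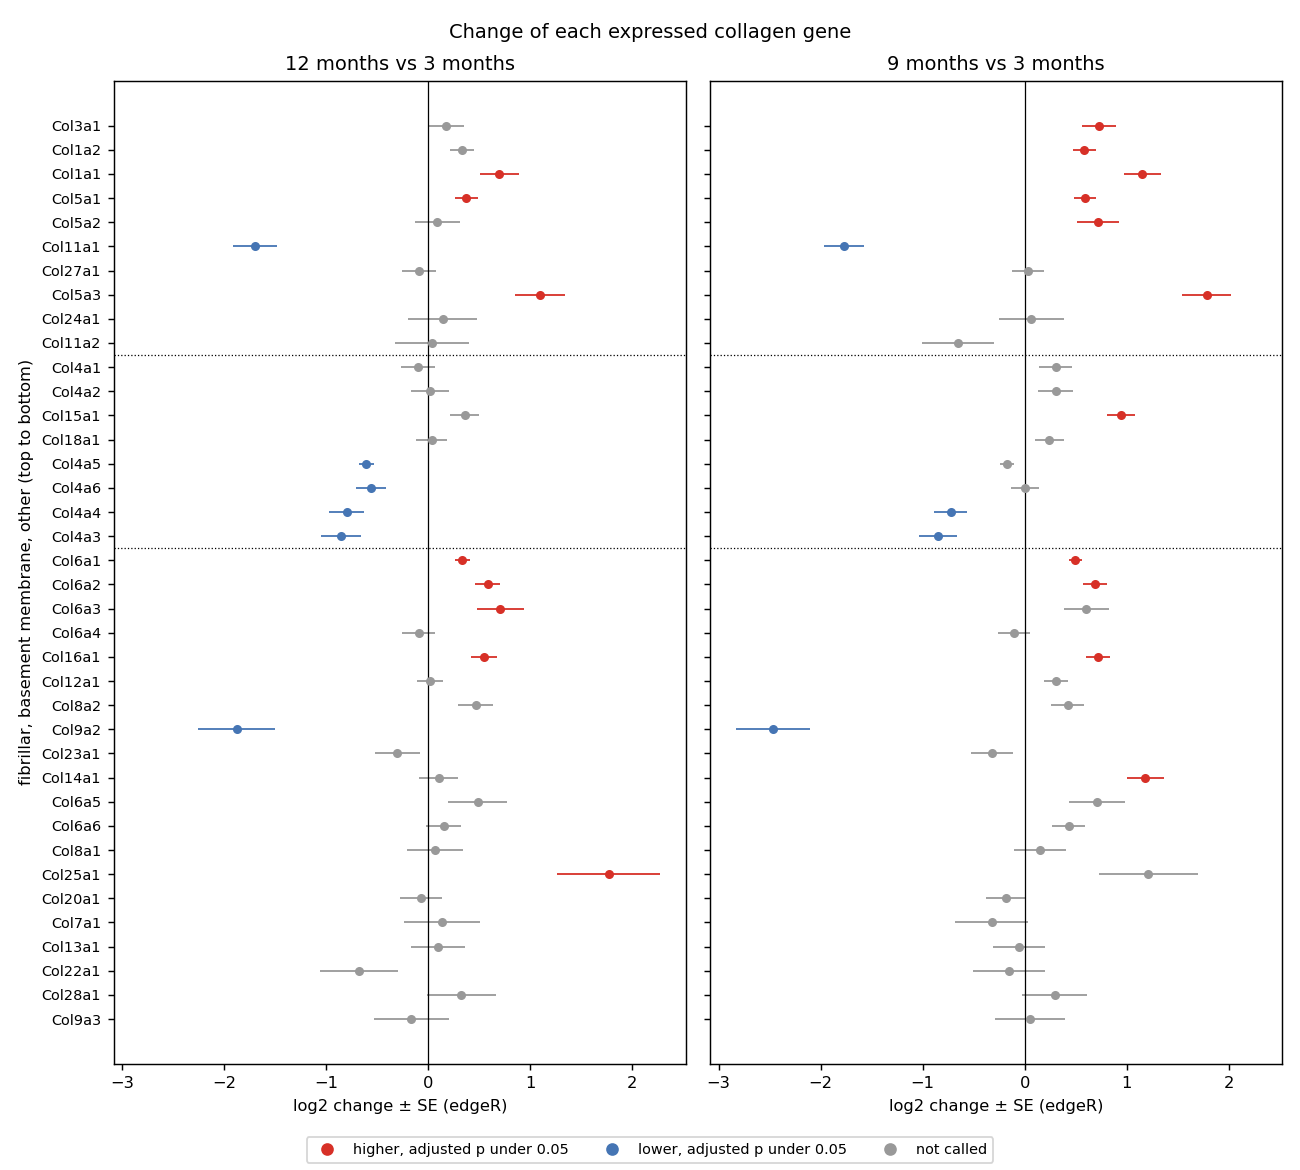
Log2 change of each of the 38 expressed collagen genes (rows, by class and mean level) at 12 months against 3 months (left) and at 9 months against 3 months (right), with edgeR's standard error as bars. Red points rose and blue points fell at an adjusted p under 0.05. Most fibrillar and type VI genes lie to the right of 0 in the right panel, while Col11a1, Col9a2, Col4a3 and Col4a4 lie to the left in both.

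Among the fibrillar chains, 6 of 10 rose and 1 fell at 9 months, with a median log2 change of 0.59. At 12 months 3 rose and 1 fell, with a median of 0.16. Of all genes tested, 25.0% passed at 9 months, 11.3% higher, and 22.4% at 12 months, 10.9% higher. Without the libraries high in Alb, 2 rose and 1 fell at 9 months with a median of 0.39, where 7.09% of all genes passed. Col3a1, Col1a2, Col5a1 and Col5a2 were then no longer called. Without the libraries high in Cr2, 6 rose and 1 fell at 9 months, where 17.6% of all genes passed. In that fit 2 rose and 1 fell at 12 months, where 25.0% of all genes passed. Without the libraries high in oviduct markers, 0 rose and 1 fell at 12 months, with a median of 0.20, where 8.89% of all genes passed.

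Col3a1 (chr1:45311538-45349706, build GRCm38/mm10) encodes the single chain of type III collagen, which forms fine fibres in soft, extensible tissue. Col3a1 stood at 1064, 1156, 942, 929.7 and 1297 CPM in the 3 month libraries and at 880.0, 1156, 945, 1474 and 1414 CPM in the 6 month libraries. At 9 months Col3a1 stood at 1625, 1786, 2243, 2056 and 1233 CPM, and at 12 months at 1198, 1472, 1209.6 and 994 CPM. Among the 9 month libraries 4 exceeded all 3 month libraries, and replicate 5 lay within their range. The log2 change was 0.73 ± 0.17 (adjusted p = 0.00448) at 9 months and 0.18 ± 0.18 (adjusted p = 0.499) at 12 months, both against 3 months. Without the Alb libraries the 9 month change was 0.61 with an adjusted p of 0.115.

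Type I collagen, the most abundant fibrous protein of skin and bone, joins chains of Col1a1 (chr11:94936224-94953042) and Col1a2 (chr6:4505618-4541543). Col1a2 stood at 977, 1054, 913, 892 and 1034 CPM in the 3 month libraries and at 936, 1275, 985, 1198 and 1241 CPM in the 6 month libraries. At 9 months Col1a2 stood at 1589, 1567, 1649, 1316 and 1185 CPM, and at 12 months at 1234, 1256, 1462 and 949 CPM. All 9 month libraries lay above all 3 month libraries, while 12 month replicate 4 lay among those of 3 months. Col1a2 rose by 0.58 ± 0.11 (adjusted p = 0.00147) on the log2 scale at 9 months, and the 12 month change of 0.33 ± 0.12 (adjusted p = 0.0555) was not called. It became a call under DESeq2 (adjusted p = 0.0362), and the 9 month call was lost without the Alb libraries (0.36, adjusted p = 0.129).

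Col1a1 stood at 343, 412, 306, 328 and 415 CPM in the 3 month libraries and at 315, 535, 361, 502 and 514 CPM in the 6 month libraries. At 9 months Col1a1 stood at 838, 943, 973, 727 and 537 CPM, and at 12 months at 515, 606, 765 and 453 CPM. No library of 9 or 12 months overlapped those of 3 months, and at 9 months replicate 5 was the lowest. Col1a1 rose 2.23-fold at 9 months, a log2 change of 1.16 ± 0.18 (adjusted p = 0.000376), and 1.62-fold at 12 months, a log2 change of 0.70 ± 0.19 (adjusted p = 0.0154). Leaving out 12 month replicate 3 took the 12 month change to 0.54 and lost the call. Without the Alb libraries the 9 month change was 0.81 (adjusted p = 0.0379).

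Type V collagen is a minor fibrillar collagen that starts the assembly of type I fibrils, and its 3 chains differed in size of change. Col5a3 (chr9:20770050-20815117) encodes a chain of restricted distribution. Col5a3 stood at 3.90, 6.05, 7.03, 8.97 and 5.83 CPM in the 3 month libraries and at 6.76, 8.15, 7.86, 7.91 and 7.74 CPM in the 6 month libraries. At 9 months Col5a3 stood at 27.6, 30.4, 24, 11.9 and 15.7 CPM, and at 12 months at 15.3, 11.6, 17 and 10.5 CPM. The 3 month and 9 month libraries did not overlap, and neither did those of 3 and 12 months, while the 6 month libraries stayed within a narrow band. The log2 change of Col5a3 was 1.78 ± 0.24 (adjusted p = 9.58e-05) at 9 months, 1.09 ± 0.25 (adjusted p = 0.00548) at 12 months and 1.65 ± 0.40 (adjusted p = 0.00496) along the trend, and without the Alb libraries it was 1.12 (adjusted p = 0.0107) at 9 months. Col5a1 changed by 0.59 ± 0.11 (adjusted p = 0.000927) at 9 months and 0.37 ± 0.11 (adjusted p = 0.027) at 12 months, the last of which missed the threshold in 5 of the refits that each left out 1 library (0.32 to 0.42 over all of them), namely those that dropped replicate 1, 3 or 4 of 3 months or replicate 2 or 3 of 12 months. The 12 month call of Col5a1 was also lost with limma (adjusted p = 0.0718) and with a length and GC offset (adjusted p = 0.0678). The same held without the libraries high in Cr2 (adjusted p = 0.0771) or in oviduct markers (adjusted p = 0.126). Its 9 month call was lost without the Alb libraries (0.43, adjusted p = 0.0698). Col5a2 changed by 0.72 ± 0.21 (adjusted p = 0.0176) at 9 months, a call lost without 9 month replicate 3, and by 0.09 at 12 months, which was not called.

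Col11a1 (chr3:114030479-114220756) encodes a chain of type XI collagen, which lies in the core of cartilage fibrils, and went the other way. Col11a1 stood at 123, 164, 136, 179.9 and 121 CPM in the 3 month libraries and at 77.6, 122, 71, 61.3 and 83 CPM in the 6 month libraries. At 9 months Col11a1 stood at 54.3, 30.4, 42.1, 33.4 and 52 CPM, and at 12 months at 38.2, 48.3, 36.9 and 55.1 CPM. Every library of 9 or 12 months lay below every library of 3 months, and 4 of the 5 libraries of 6 months also did. The log2 change was -1.77 ± 0.20 (adjusted p = 3.44e-05) at 9 months and -1.70 ± 0.21 (adjusted p = 0.000194) at 12 months, and leaving out the Alb libraries gave -1.76 (adjusted p = 0.00385) at 9 months. Its type XI partner Col11a2 stood between 0.722 and 3.67 CPM over all libraries and was not called. Col24a1 and Col27a1, fibrillar chains of developing bone and cartilage, averaged 2.33 and 38.6 CPM and were not called either.

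**Figure D3:**
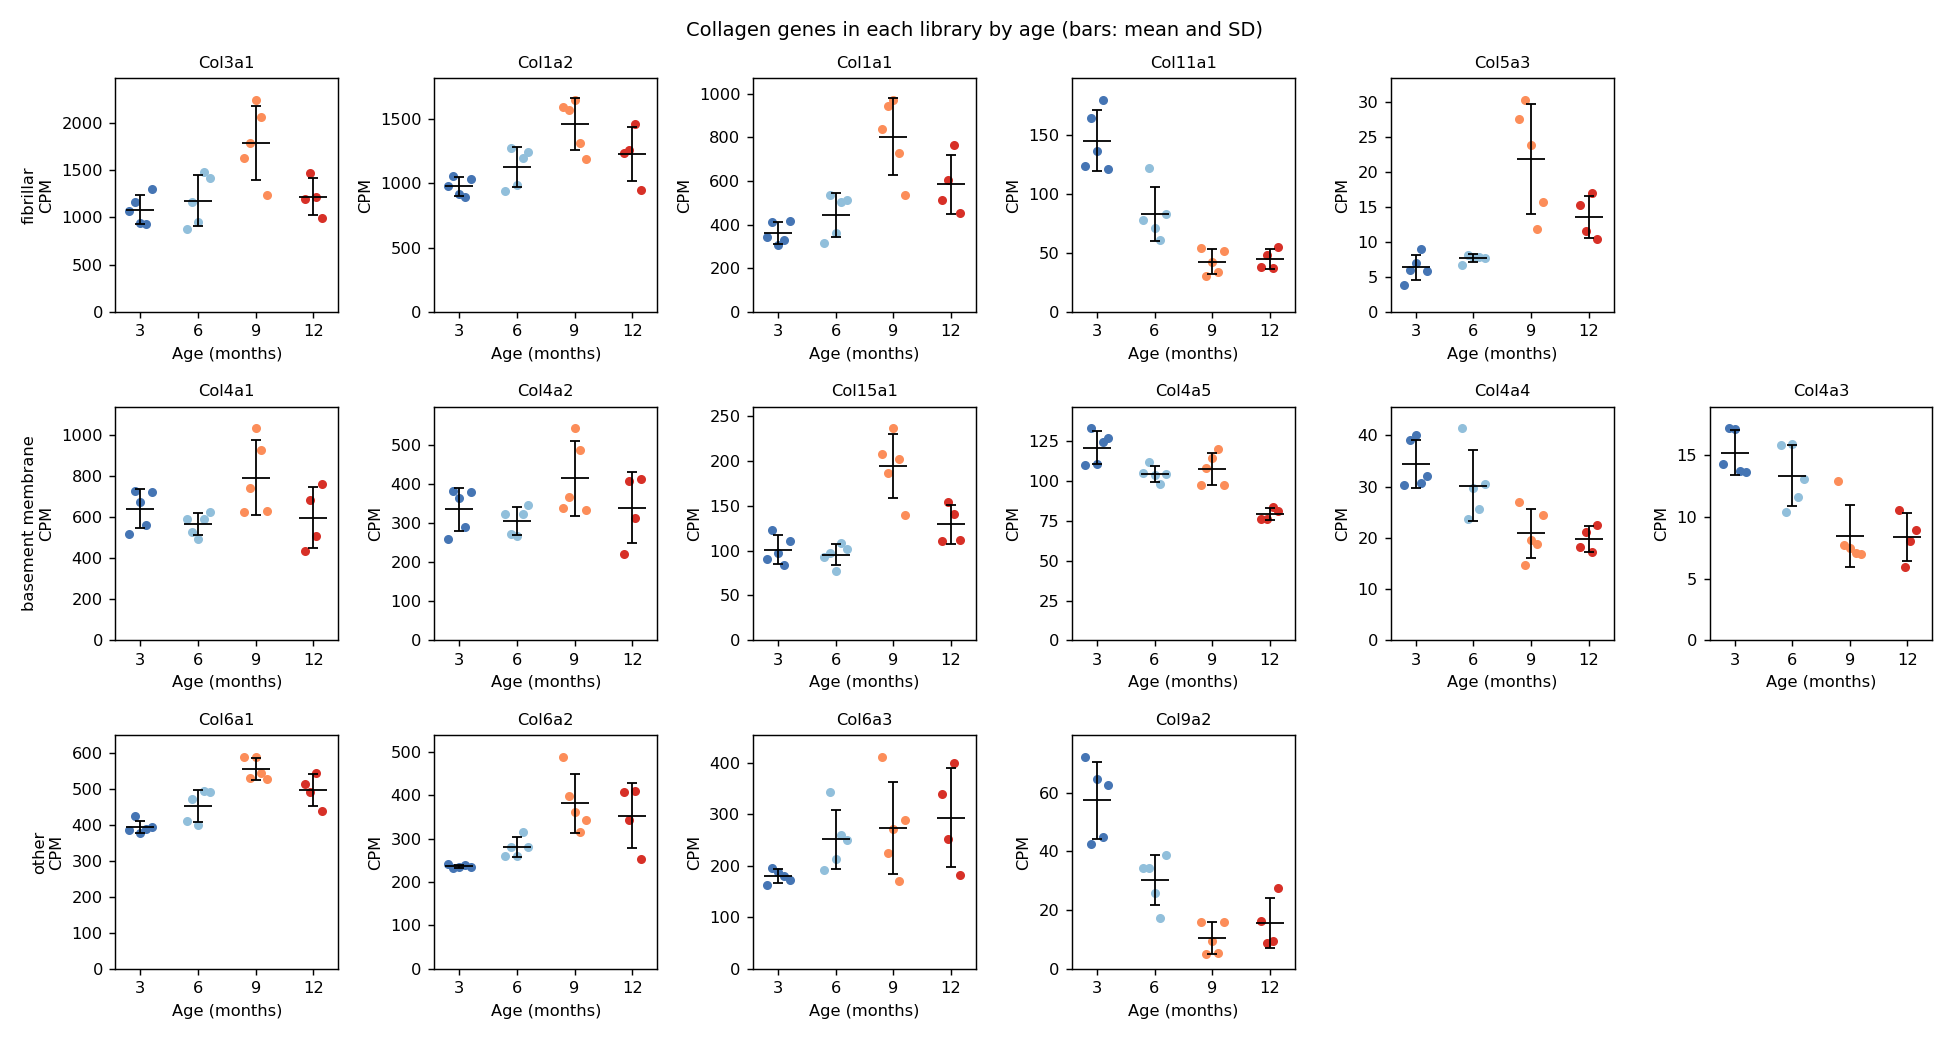
CPM (vertical axes, each from 0) of 15 collagen genes in each library against age in months, by class (rows), with mean and SD as bars. Col1a1 and Col5a3 are highest at 9 months and above their 3 month levels at 12 months, while Col11a1 and Col9a2 are lower at 9 and 12 months than at 3 months and Col4a5 is lowest at 12 months.

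The DNA before the start sites is shown for 4 members of which the level at 9 months differed from that at 3 months, in both directions, and for which RefSeq holds the 180 bases before the outermost start of the gene. That start is the first base of the gene in RefSeq or the GENCODE basic annotation, whichever lies further out, and no exon of either strand in that GENCODE annotation overlaps the stretches shown. They lie at chr1:45311358-45311537 on the plus strand for Col3a1, chr9:20815118-20815297 on the minus strand for Col5a3, chr10:76623631-76623810 on the minus strand for Col6a2 and chr3:114030299-114030478 on the plus strand for Col11a1 (RefSeq sequence, build GRCm38.p6), printed 5′ to 3′ along the gene. Capitals mark the CCAAT box, the GC box GGGCGG and the TATA box motif TATAAA, searched on both strands. A match to the other strand reads as ATTGG for the CCAAT box, as CCGCCC for the GC box and as TTTATA for the TATA box.
Col3a1: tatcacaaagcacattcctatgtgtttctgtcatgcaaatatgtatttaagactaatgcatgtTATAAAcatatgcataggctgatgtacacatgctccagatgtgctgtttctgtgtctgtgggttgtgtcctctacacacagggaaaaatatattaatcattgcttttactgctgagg
Col5a3: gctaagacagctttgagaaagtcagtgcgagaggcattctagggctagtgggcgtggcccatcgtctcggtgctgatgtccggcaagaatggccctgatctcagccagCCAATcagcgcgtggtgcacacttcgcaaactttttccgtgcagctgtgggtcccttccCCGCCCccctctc
Col6a2: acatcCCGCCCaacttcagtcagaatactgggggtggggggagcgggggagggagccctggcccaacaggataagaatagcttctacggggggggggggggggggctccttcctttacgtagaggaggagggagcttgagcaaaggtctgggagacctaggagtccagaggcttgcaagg
Col11a1: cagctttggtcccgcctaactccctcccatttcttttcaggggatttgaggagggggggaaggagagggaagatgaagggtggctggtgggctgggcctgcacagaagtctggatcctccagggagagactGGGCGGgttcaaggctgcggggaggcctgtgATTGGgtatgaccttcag

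These letters differed between members that moved the same way. Col3a1, which rose at 9 months, had 1 TATAAA, with its first base at -117 from the outermost start, and a GC content of 37.2%. Col5a3, with the largest rise of the family at 9 months, and Col11a1, which fell, each had 1 CCAAT and 1 GGGCGG match, with a GC content of 59.4% and 60%. Col6a2, which rose at 9 months, had 1 GGGCGG match and a GC content of 62.2%. RefSeq windows were matched for 35 of the 43 genes. In the 180 bases before the listed start site, 28.2% of 27025 genes held CCAAT, 30.5% GGGCGG and 9.47% TATAAA, and of the 35 collagen genes 7, 20 and 4 did. The matches describe the sequence and were not tested as binding sites.

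Basement membrane chains differed in the direction of change, and no contrast between their networks was tested. At 12 months 4 of the 8 fell and 0 rose, with a median log2 change of -0.33. At 9 months 1 rose and 2 fell, with a median of 0.12. Of all genes tested, 11.5% were called lower and 10.9% higher at 12 months, and 13.6% lower and 11.3% higher at 9 months. The same counts were found without the Alb libraries, and at 12 months also without the libraries high in oviduct markers. Without the Alb libraries 7.09% of all genes passed at 9 months and 3917 of 15759 at 12 months. Without those high in oviduct markers 8.89% passed at 12 months. All 4 that fell at 12 months were minor type IV chains.

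Col4a1 (chr8:11198423-11312889) and Col4a2 (chr8:11312805-11449287) encode the chains of the type IV network found in all basement membranes, and lie head to head on opposite strands, with 1 listed RefSeq start site each, 21 bases apart. Col4a1 stood at 519, 729, 673, 563 and 723 CPM in the 3 month libraries and at 592, 526, 494, 592 and 627 CPM in the 6 month libraries. At 9 months Col4a1 stood at 623, 741, 1035, 928 and 633 CPM, and at 12 months at 437, 685, 510.3 and 761 CPM. The ranges of all ages overlapped, and 9 month replicates 3 and 4 were the highest libraries. Col4a1 changed by 0.30 ± 0.16 (adjusted p = 0.175) at 9 months and -0.10 ± 0.17 (adjusted p = 0.707) at 12 months on the log2 scale, neither of them called.

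Col4a2 stood at 259.8, 381, 363, 290.0 and 378 CPM in the 3 month libraries and at 324, 271, 267, 322 and 347 CPM in the 6 month libraries. At 9 months Col4a2 stood at 339, 367, 542, 487 and 334 CPM, and at 12 months at 221, 407, 314 and 413 CPM. Col4a2 was highest in the same 9 month replicates 3 and 4 and lowest in 12 month replicate 1, as Col4a1 was. Its log2 changes of 0.31 (adjusted p = 0.205) at 9 months and 0.02 (adjusted p = 0.956) at 12 months were not called. The exons of both genes share 22 bases, 0.33% of those of Col4a1.

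The remaining type IV chains belong to networks known from the kidney filter and from smooth muscle. Col4a5 (chrX:141475370-141689236) takes part in both of these. Col4a5 stood at 109.9, 133, 110.5, 125 and 127 CPM in the 3 month libraries and at 105, 112, 104, 98.1 and 104 CPM in the 6 month libraries. At 9 months Col4a5 stood at 97.3, 108, 115, 119.8 and 97.8 CPM, and at 12 months at 76.2, 76.3, 83.8 and 81.4 CPM. All 4 libraries of 12 months lay below all 15 younger ones, and 9 month libraries overlapped those of 3 and 6 months. Col4a5 fell at 12 months by 0.61 ± 0.07 (adjusted p = 0.000103) on the log2 scale, while its 9 month change was -0.17 ± 0.07 (adjusted p = 0.0726). The neighbouring gene Col4a6, with its listed start site 1343 bases away on the other strand, averaged 25.9 ± 3.74 CPM at 12 months and 38.3 ± 3.25 CPM at 3 months (SD, n = 4 and 5). It fell by 0.56 ± 0.15 (adjusted p = 0.0128) at 12 months, and changed by 0.00 (adjusted p = 0.988) at 9 months.

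Col4a4 (chr1:82448419-82587034) and Col4a3 (chr1:82586921-82722059), the partners of Col4a5 in the kidney network, were already lower at 9 months. Col4a4 stood at 30.4, 39, 40.1, 30.7 and 32.1 CPM in the 3 month libraries and at 41.4, 23.7, 29.7, 25.5 and 30.5 CPM in the 6 month libraries. At 9 months Col4a4 stood at 27, 14.8, 19.5, 18.7 and 24.3 CPM, and at 12 months at 18.1, 21.2, 17.3 and 22.5 CPM. None of the libraries of 9 or 12 months reached the range of 3 months, whereas those of 6 months spread from the 9 month range to above the 3 month range. The log2 change of Col4a4 was -0.72 ± 0.16 (adjusted p = 0.00315) at 9 months and -0.80 ± 0.17 (adjusted p = 0.00407) at 12 months.

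Col4a3 stood at 14.3, 17.2, 17.2, 13.7 and 13.6 CPM in the 3 month libraries and at 15.8, 10.4, 15.9, 11.6 and 13 CPM in the 6 month libraries. At 9 months Col4a3 stood at 12.9, 7.70, 7.45, 7.10 and 7.001 CPM, and at 12 months at 10.6, 5.97, 8.01 and 8.92 CPM. In 9 month replicate 1 Col4a3 stood close to the 3 month range, and the other 9 month libraries lay lower. It changed by -0.85 ± 0.18 (adjusted p = 0.0028) at 9 months and -0.86 ± 0.20 (adjusted p = 0.0057) at 12 months. Without the Alb libraries, 9 month replicate 1 among them, the change at 9 months was -1.11 (adjusted p = 0.00843). Exons of Col4a3 share 3.2% of their bases with a transcript on the other strand, and strand use in the counting is not given in the sources used here.

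Col15a1 (chr4:47207655-47313167) encodes a collagen that carries sugar chains and links the basement membranes of vessels and muscle to the fibres around them. Col15a1 stood at 90.2, 123, 97.5, 83.8 and 111 CPM in the 3 month libraries and at 93, 97.3, 76.8, 108 and 102 CPM in the 6 month libraries. At 9 months Col15a1 stood at 207, 186, 237, 203 and 139 CPM, and at 12 months at 110.3, 155, 140.3 and 112 CPM. The 9 month libraries all lay above those of 3 and 6 months, and those of 12 months overlapped with 3 months. Col15a1 changed by 0.94 ± 0.14 (adjusted p = 0.000211) at 9 months, by 0.76 (adjusted p = 0.0162) without the Alb libraries, and by 0.35 ± 0.15 (adjusted p = 0.0855) at 12 months. Its trend of 0.74 ± 0.26 (adjusted p = 0.0383) missed the threshold when replicate 1, 3, 4 or 5 of 3 months, replicate 5 of 6 months or replicate 2 of 9 months was dropped (0.65 to 0.86 over all such refits). The trend also missed it without the libraries high in Cr2 (adjusted p = 0.102) and without those high in Alb (adjusted p = 0.057). So it did with limma (adjusted p = 0.0546), with no low-count filter (adjusted p = 0.0508) and with a length and GC offset (adjusted p = 0.058). Col18a1, which encodes the related collagen from which endostatin is cut, changed by 0.24 ± 0.14 (adjusted p = 0.223) at 9 months and was not called.

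Some markers of endothelium and smooth muscle, cells that lie on basement membranes, were higher at 9 and 12 months than at 3 months. Of the 6 endothelial markers, which summed to 400 to 467 CPM at 9 months and 276 to 304 CPM at 3 months, all 6 rose at 9 months. At 12 months, with sums of 343 to 400 CPM, 3 of the 6 rose. Of 5 smooth muscle markers tested 4 rose at 9 months and 4 at 12 months, while Acta2 was listed at 0 in every library. Among all genes tested, 11.3% were called higher at 9 months and 10.9% at 12 months. Of the 6 granulosa cell markers 0 rose and 1 fell at each of these ages, with median log2 changes of -0.41 and -0.02. The part of these cells in the changes of basement membrane genes was not tested.

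Type VI collagen was the beaded filament group, with 6 genes. At 12 months 3 of the 6 rose with a median log2 change of 0.41. At 9 months 2 rose with a median of 0.55, and 0 fell at either age. Of all genes tested, 22.4% passed at 12 months, 10.9% higher, and 25.0% at 9 months, 11.3% higher. Without the libraries high in oviduct markers 0 rose at 12 months, where 8.89% of all genes passed. The changes were then 0.25 for Col6a1, 0.34 for Col6a2 and 0.28 for Col6a3. The 3 that rose at 12 months encode the standard chains of the filament, and Col6a4, Col6a5 and Col6a6 encode chains that can replace the longest one.

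Col6a1 (chr10:76708792-76726044) varied little within an age. Col6a1 stood at 386, 423, 378, 388 and 393 CPM in the 3 month libraries and at 409, 471, 400.2, 493 and 491 CPM in the 6 month libraries. At 9 months Col6a1 stood at 589, 530.4, 589, 544 and 528 CPM, and at 12 months at 513, 491, 543 and 439 CPM. Libraries of 9 and 12 months all lay above those of 3 months. The log2 change was 0.50 ± 0.07 (adjusted p = 0.000114) at 9 months and 0.33 ± 0.07 (adjusted p = 0.00408) at 12 months, and 0.45 (adjusted p = 0.00834) at 9 months without the Alb libraries.

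Col6a2 (chr10:76595756-76623630) had the narrowest spread at 3 months and a wide one later. Col6a2 stood at 241, 232, 235, 238 and 234 CPM in the 3 month libraries and at 259.9, 282, 260.2, 316 and 279.9 CPM in the 6 month libraries. At 9 months Col6a2 stood at 489, 397, 362, 315 and 343 CPM, and at 12 months at 408, 343, 409 and 252 CPM. All libraries of 6, 9 and 12 months exceeded the highest 3 month library, and 12 month replicate 4 lay closest to it. Along the trend Col6a2 rose by 0.69 ± 0.14 (adjusted p = 0.00152), and at 9 months by 0.48 (adjusted p = 0.0318) without the Alb libraries.

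Col6a3 (chr1:90766860-90844001), the longest of the standard chains, spread widely from 6 months on. Col6a3 stood at 162, 196, 187, 181 and 172 CPM in the 3 month libraries and at 191, 342, 213, 259 and 251 CPM in the 6 month libraries. At 9 months Col6a3 stood at 412, 225, 270.2, 171 and 288 CPM, and at 12 months at 339, 251, 399 and 182 CPM. At each older age 1 library lay within the 3 month range and the others above it. The change was 0.71 ± 0.23 (adjusted p = 0.0374) at 12 months and 0.60 ± 0.22 (adjusted p = 0.0537) at 9 months. At 9 months it was called by DESeq2 (adjusted p = 0.0161) and without the libraries high in oviduct markers (adjusted p = 0.0349). It was not called at 9 months without those high in Alb (0.35, adjusted p = 0.489) or in Cr2 (0.45, adjusted p = 0.201). The 12 month call was lost without any 1 of the 5 libraries of 3 months and without 12 month replicate 1 or 3, with changes of 0.52 to 0.87 over all such refits. It was also lost with limma (adjusted p = 0.0733) and with no low-count filter (adjusted p = 0.0547).

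Col6a4 (mean 176 CPM), Col6a5 (14.7 CPM) and Col6a6 (13.2 CPM) were not called at 9 or 12 months. Col6a4 changed by -0.10 ± 0.16 (adjusted p = 0.713) at 12 months, Col6a5 by 0.48 ± 0.29 (adjusted p = 0.243) and Col6a6 by 0.15 ± 0.17 (adjusted p = 0.558). At 9 months DESeq2 called Col6a5 (adjusted p = 0.0352) and Col6a6 (adjusted p = 0.0315), both higher.

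Of the 7 fibril-associated genes expressed, 2 rose and 1 fell at 9 months and 1 rose and 1 fell at 12 months. Among all genes tested, 25.0% passed at 9 months and 22.4% at 12 months. Col9a2 (chr4:121039566-121055325) encodes a chain of type IX collagen, which coats type II fibrils in cartilage. Col9a2 stood at 72.3, 42.5, 64.7, 44.8 and 62.5 CPM in the 3 month libraries and at 34.4, 34.4, 25.7, 17.4 and 38.6 CPM in the 6 month libraries. At 9 months Col9a2 stood at 15.9, 5.11, 9.51, 5.38 and 16.1 CPM, and at 12 months at 16.3, 8.95, 9.57 and 27.5 CPM. The 3 month libraries did not overlap those of any older age, and 9 month replicates 2 and 4 were lowest. Col9a2 had the strongest fall of the family, with log2 changes of -2.47 ± 0.36 (adjusted p = 0.000255) at 9 months and -1.88 ± 0.38 (adjusted p = 0.00358) at 12 months, and -2.42 (adjusted p = 0.0144) at 9 months without the Alb libraries. At 6 months the change of -0.93 ± 0.34 (adjusted p = 0.43) was not called. Its type IX partner Col9a3 averaged 1.16 CPM and was not called, and Col9a1 was not expressed by the rule.

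Col16a1 and Col14a1, named here after their values were seen, encode fibril-associated collagens of connective tissue. Col16a1 averaged 75.6 ± 8.58 CPM at 3 months, 94.8 ± 14.1 CPM at 6 months, 124 ± 14 CPM at 9 months and 110.3 ± 19.97 CPM at 12 months (SD, n = 5, 5, 5 and 4). It changed by 0.72 ± 0.12 (adjusted p = 0.000514) at 9 months and 0.55 ± 0.13 (adjusted p = 0.00654) at 12 months. Col14a1, which binds fibrils together with decorin, had its highest values at 9 months. Col14a1 stood at 18.8, 13.5, 15.5, 17.6 and 14.2 CPM in the 3 month libraries and at 16.9, 13.5, 14.5, 15.6 and 10.7 CPM in the 6 month libraries. At 9 months Col14a1 stood at 41.5, 48.3, 39.2, 31.7 and 19.8 CPM, and at 12 months at 18.7, 18.3, 15.4 and 16 CPM. The 9 month libraries lay above all others, and replicate 5 came closest to them. Its log2 change was 1.18 ± 0.18 (adjusted p = 0.000243) at 9 months, 0.69 (adjusted p = 0.0299) without the Alb libraries, and 0.10 ± 0.19 (adjusted p = 0.733) at 12 months.

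Transmembrane, network-forming and anchoring collagens were mostly low. Col25a1, a transmembrane collagen first known from brain, stood at 21.6, 2.68, 12.5 and 2.87 CPM at 12 months, against 2.25, 2.69, 3.09, 4.15 and 2.33 CPM at 3 months. Its log2 change of 1.77 ± 0.50 (adjusted p = 0.0192) rested on 12 month replicates 1 and 3, since the other 12 month libraries lay within the 3 month range. Leaving out either of them lost the call, and the change was 1.05 to 2.08 over all refits that left out 1 library. The same 12 month replicates and 9 month replicate 2, at 13.4 CPM of Col25a1, were the 3 libraries highest in oviduct markers, and without these 3 the 12 month change was -0.055 (adjusted p = 0.928). Col13a1, Col23a1, Col8a1, Col8a2, Col7a1 and Col28a1, and the fibril-associated Col12a1, Col20a1 and Col22a1, were not called at 12 or 9 months by edgeR over all libraries. At 9 months DESeq2 called Col12a1 (adjusted p = 0.0439), Col8a2 (adjusted p = 0.0455) and Col25a1 (adjusted p = 0.0315, against 0.0753 with edgeR), all higher. Col12a1 also passed at 9 months in 6 of the refits that left out 1 library. Without the libraries high in Cr2, Col22a1 changed by -1.21 (adjusted p = 0.0167) at 12 months, where 25.0% of all genes passed. Col8a2, a chain of the short network under the corneal endothelium, came closest at 12 months with 0.46 ± 0.17 (adjusted p = 0.0603), and DESeq2 called it (adjusted p = 0.0422). Its 12 month change was 0.60 (adjusted p = 0.00343) without the libraries high in Cr2 and 0.46 (adjusted p = 0.028) without those high in Alb. Without those high in oviduct markers it was 0.17 (adjusted p = 0.467) at 12 months and 0.26 (adjusted p = 0.119) at 9 months.

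**Figure D4:**
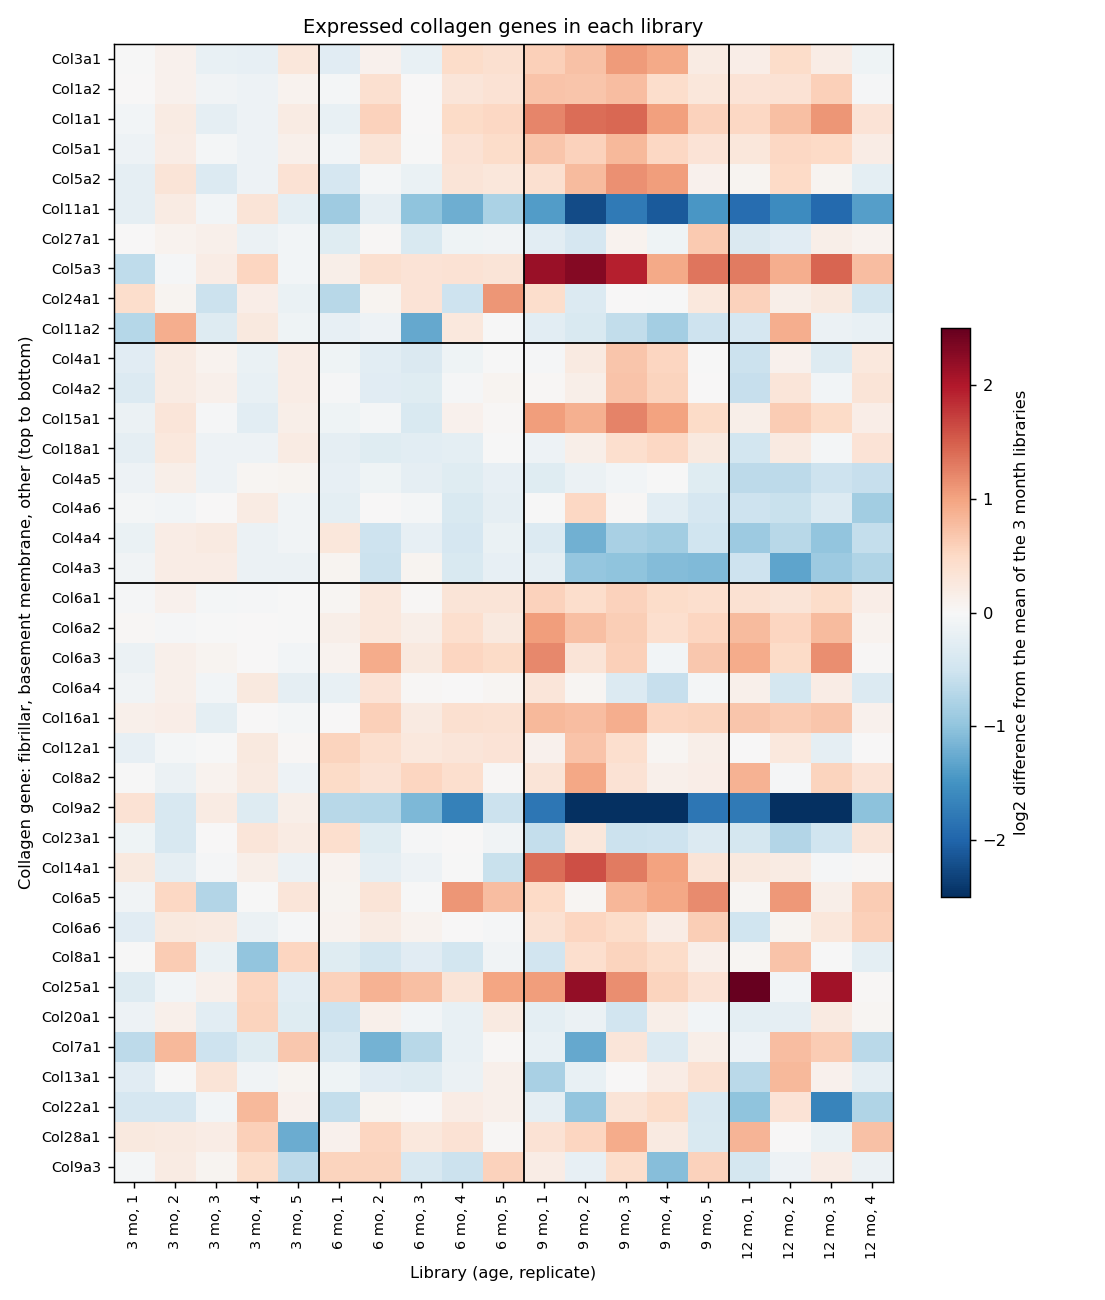
Log2 level of the 38 expressed collagen genes (rows, by class and mean level) in each of the 19 libraries (columns), as log2 of CPM plus 0.1 minus the mean of the 3 month libraries, with colours cut at -2.5 and 2.5. Most rows from Col3a1 to Col5a2 are red in 9 month replicates 1 to 4 and pale in replicate 5, and Col11a1, Col4a3, Col4a4 and Col9a2 are blue from 9 months on.

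Ratios between 2 collagen genes in a library do not depend on library scaling. At 12 months against 3 months 9 pairs were compared, 8 of chains of the same collagen type and 1 of type III over type I. The mean log2 count ratio of Col1a1 to Col1a2 was -1.08 ± 0.135 at 12 months and -1.44 ± 0.108 at 3 months (SD, n = 4 and 5), with no overlap. The difference of 0.36 had p = 0.0159 in a two-sided exact permutation test, the smallest p that 4 against 5 libraries allow, and an adjusted p of 0.0714 over the 9 pairs. The ratio of Col3a1 to Col1a1, type III over type I, was 1.07 ± 0.281 at 12 months and 1.58 ± 0.0757 at 3 months, a difference of -0.51 with the same exact p of 0.0159 and adjusted p of 0.0714. None of the 9 pairs passed an adjusted p of 0.05, and both of these had an unadjusted p under 0.05. With only these pairs at the smallest possible p, the adjusted p over 9 pairs could not fall below 0.0714.

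With libraries of 9 and 12 months set against those of 3 and 6 months, the ratio of Col1a1 to Col1a2 was higher by 0.43 (permutation test, adjusted p = 0.000585) and that of Col3a1 to Col1a1 lower by 0.37 (permutation test, adjusted p = 0.00477). The Col4a1 to Col4a2 ratio was the tightest of the 9, at 0.70 to 1.01 over all 19 libraries on the log2 scale. Its mean was 0.83 ± 0.128 at 12 months and 0.94 ± 0.0400 at 3 months, which did not differ beyond the spread (exact permutation test, p = 0.127). The Col4a5 to Col4a6 ratio spanned 0.98 to 1.96 and the Col8a1 to Col8a2 ratio -2.66 to -0.65.

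**Figure D5:**
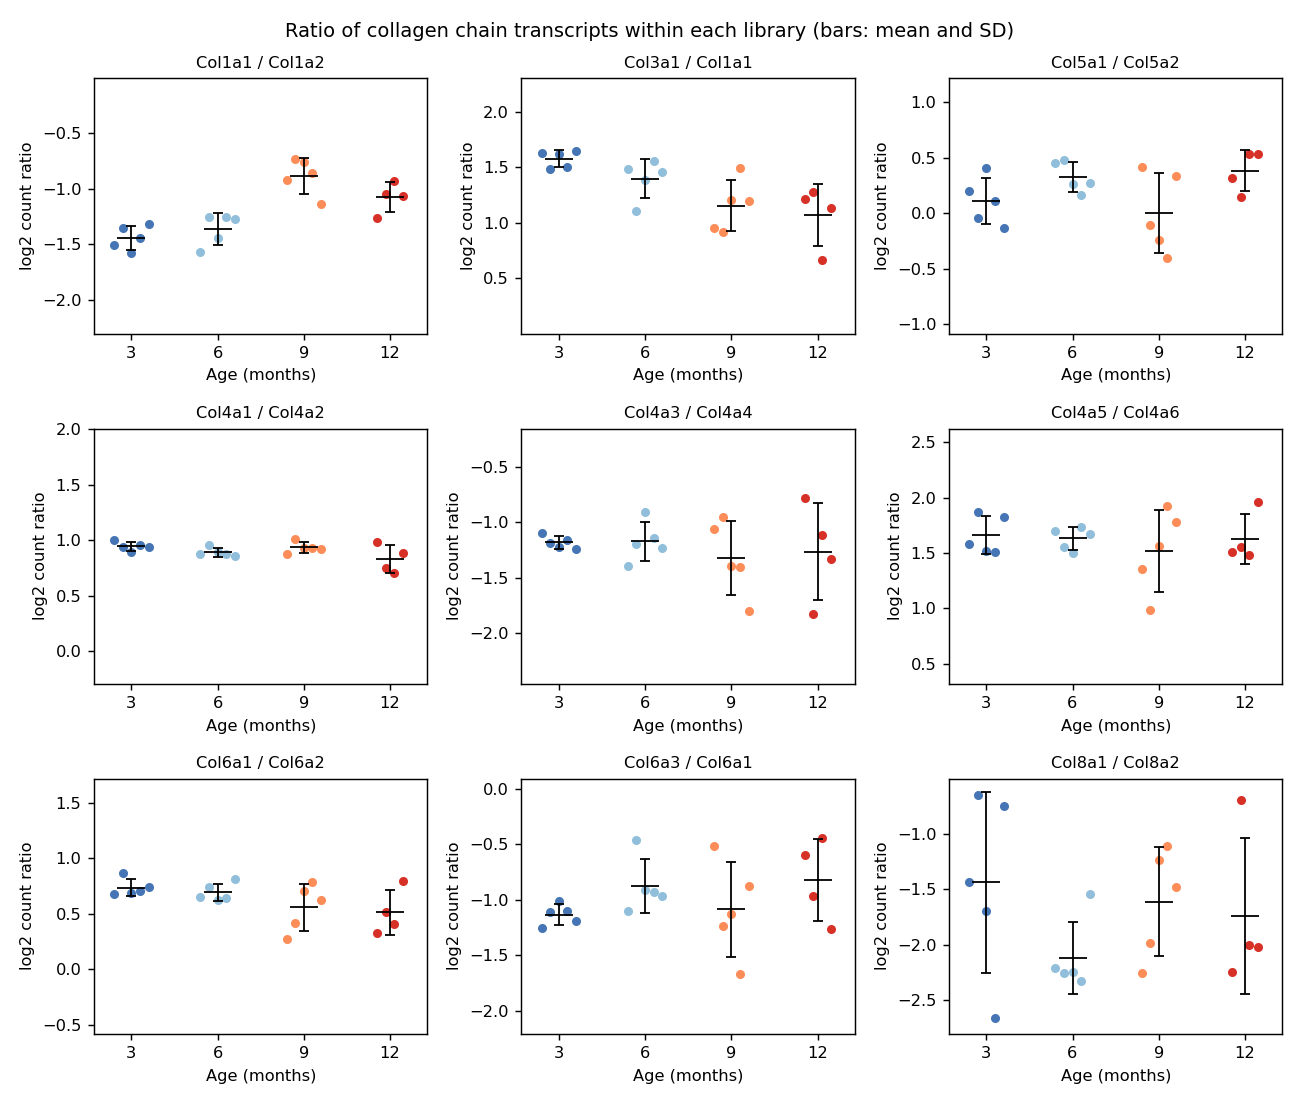
Log2 ratio of the counts of 2 collagen chains (vertical axes) within each library against age in months, for 9 pairs, with mean and SD as bars. The means of Col1a1 over Col1a2 are higher and those of Col3a1 over Col1a1 lower at 9 and 12 months than at 3 months. For Col3a1 over Col1a1, 9 month replicate 4 lies within the 3 month range. Col4a1 over Col4a2 stays between 0.70 and 1.01.

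Genes that modify, process and bind collagen were described from lists chosen with earlier results known. Of the 18 tested genes of chain modification and folding, 1 rose and 0 fell at 12 months, and 2 rose and 0 fell at 9 months. The median log2 changes were -0.02 and 0.09. Among all genes tested, 22.4% passed at 12 months and 25.0% at 9 months. Ppib, the prolyl isomerase that speeds triple helix folding, changed by 0.19 ± 0.06 (adjusted p = 0.0249) at 12 months. Its level was 313 ± 20.8 CPM at 12 months and 274 ± 20.5 CPM at 3 months (SD, n = 4 and 5). At 9 months the genes that rose were P4hb, a subunit of prolyl 4-hydroxylase, and Leprel2, a prolyl 3-hydroxylase, with log2 changes of 0.18 and 0.35. Both were named after their values were seen.

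Of the 7 tested genes of procollagen processing, 2 rose and 1 fell at 12 months and 2 rose and 1 fell at 9 months. The shares of all genes tested that passed were 22.4% and 25.0%. The proteases Adamts2, Adamts3 and Adamts14 all cut the amino end peptide from fibrillar procollagens. Adamts2 averaged 100.4 ± 9.03 CPM at 12 months and 158 ± 17 CPM at 3 months, a log2 change of -0.65 ± 0.12 (adjusted p = 0.00234). Adamts3 averaged 5.37 ± 2.16 CPM at 12 months and 2.85 ± 0.666 CPM at 3 months, a log2 change of 0.91 ± 0.29 (adjusted p = 0.0309). Adamts14 averaged 3.60 ± 0.579 CPM at 12 months and 2.20 ± 0.455 CPM at 3 months, a log2 change of 0.71 ± 0.23 (adjusted p = 0.0347) (SD, n = 4 and 5 for each). At 9 months Pcolce, an enhancer of the protease that cuts the carboxyl end, rose by 0.69 ± 0.16 (adjusted p = 0.00519); it was named after its values were seen.

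Of the 10 tested receptors and uptake genes, 0 rose and 1 fell at 12 months, and 2 rose and 2 fell at 9 months. Here too 22.4% of all genes tested passed at 12 months and 25.0% at 9 months. Itga2, a collagen-binding integrin subunit, averaged 9.75 ± 2.54 CPM at 12 months and 29.4 ± 8.005 CPM at 3 months (SD, n = 4 and 5), a log2 change of -1.59 ± 0.25 (adjusted p = 0.000715). At 9 months the receptor kinase gene Ddr2 changed by 0.39 ± 0.09 (adjusted p = 0.00548) and the uptake receptor gene Mrc2 by 0.50 ± 0.10 (adjusted p = 0.00208), both named after their values were seen.

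The 7 fibroblast and stroma markers, of which Dcn had the highest level, summed to 1226 to 1460 CPM at 3 months, 1382 to 1623 CPM at 6 months, 1551 to 2711 CPM at 9 months and 1314 to 1957 CPM at 12 months. At 9 months 4 of the 7 rose, 1 fell and 2 were not called, where 11.3% of all genes tested were called higher and 13.6% lower. Dcn, which encodes the proteoglycan decorin, rose by 0.83 ± 0.15 (adjusted p = 0.000713) at 9 months, while Tcf21 changed by -0.35 ± 0.09 (adjusted p = 0.00994). Summed oocyte markers, 6 genes, stood at 9.07 to 79.4 CPM at 9 months and 168 to 254 CPM at 3 months. The part of these markers in the collagen changes was not tested.

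Finally, 5 of the 43 genes were not expressed by the rule. Col17a1, the collagen of skin hemidesmosomes, had a mean of 0.698 CPM just under the limit, was tested and was not called, while Col9a3 with 1.16 CPM was the lowest above it. Col10a1, Col19a1, Col2a1 and Col9a1 did not pass the filter on low counts. All 38 expressed genes did pass.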

How the data were processed

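Whole ovaries were profiled by RNA-seq in 19 libraries of 4 ages, and each library was placed in its group by its age label. Genes were quantified by the authors on build mm10, per the submitters' processing notes; aligner, counting method and use of strand were not given in the sources used here, so overlapping and antisense genes are uncertain. The authors deposited estimated counts per gene, which were rounded to whole numbers here. They also deposited log2 values, normalized against the 3 month median per the file headers, which served only for an alternative with limma. Each deposited file held 1 column of values that matched no sample and was left out.

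Counts were tested in R 4.3.3 with edgeR 4.0.16 (quasi-likelihood test, robust, TMM scaling, 1 mean per age over all 19 libraries) after its low-count filter (minimum count 10, minimum total 15). This left 15518 genes, over which p-values were adjusted by the Benjamini-Hochberg method. Adjusted p-values without another tool named are edgeR's, and the threshold was 0.05. The trend used age in months as a number. Errors beside log2 changes are standard errors. Ratios of chains were compared by exact permutation tests, two-sided, adjusted over 9 pairs. DESeq2 1.42.0 and limma 3.58.1 served as alternatives. Each of the 36 pairs of libraries of 1 age differed beyond sampling noise (chi-square divided by its degrees of freedom 4.95 to 37.0), so none was treated as a second copy of another; this does not show that they come from separate mice. The fit was checked on simulated counts.

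Members and lists were chosen with earlier results of these data known. Named with values in every library were the 3 members of each class with the highest mean and up to 3 with the smallest trend p among those called, and from each pathway list up to 4 called genes with the smallest p at 12 months. Exon lengths and overlaps came from GENCODE annotation of the same build. The settings that leave out libraries high in lymph node, liver or oviduct transcripts, and a length and GC offset, were added after seeing the data.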

Additional observations from a re-analysis of the deposited data

Results flagged for a closer look

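In 8 of 152 groups (38 genes at 4 ages) the highest or lowest library was separated from the others by more than Dixon's critical value, and chance alone flags about 1 in 20 groups. At 9 months Col8a2 stood at 45.8 CPM in replicate 2, against 25.6 to 30.1 CPM in the others, Col23a1 at 31.7 CPM in replicate 2, against 17 to 20.2 CPM, and Col25a1 at 13.4 CPM in replicate 2, against 3.65 to 6.46 CPM. Replicate 2 had the highest oviduct marker sum of all libraries, 6331 CPM, and is also 1 of the 3 libraries high in lymph node markers and 1 of the 3 high in Alb. Col25a1 stood at 21.6 and 12.5 CPM in 12 month replicates 1 and 3, the other 2 libraries high in oviduct markers, and at 2.68 to 6.46 CPM in the other libraries high in lymph node markers or Alb. The part of these tissues in the values was not tested. Col4a3 stood at 12.9 CPM in 9 month replicate 1, against 7 to 7.7 CPM. At 12 months Col16a1 stood at 80.6 CPM in replicate 4, below 117 to 122 CPM in the others, and Col11a2 at 3.67 CPM in replicate 2, against 1.41 to 1.71 CPM. At 6 months Col18a1 stood at 108 CPM in replicate 5, against 88.2 to 93.7 CPM, and Col22a1 at 2.10 CPM in replicate 1, below 3.29 to 3.70 CPM.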

How the results depend on the processing

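The count of collagen genes called at 12 months against 3 months was 14, and 10 to 16 with each library left out in turn. Under other scaling, tools, filters, samples in the fit or a length and GC offset it was 11 to 16. All genes called numbered 3475, 2124 to 3806 and 2704 to 4034 in these cases. Without the 3 libraries high in oviduct markers the collagen count was 6, all lower and all among the 14, where 8.89% of all genes passed. Col25a1 was then at -0.055 (adjusted p = 0.928), the only called value that changed direction, and the cause was not tested. The 12 month count was 9 (4 higher, 5 lower) at an adjusted p under 0.01, where 1354 of 15518 genes passed. At 9 months against 3 months the collagen count was 15, with 11 to 21 under the same settings. With each library left out it was 14 to 20, where 2784 to 4484 of all genes were called. The 11 came from leaving out the libraries high in Alb, where 7.09% of all genes passed. The 21 came from DESeq2, where 4358 of 15512 genes passed, and all 15 were among the 21. Along the trend the collagen count was 15, with 11 at an adjusted p under 0.01, where 2349 of 15518 genes passed. It was 13 to 16 under the other settings, where 3253 to 5047 of all genes were called. With each library left out it was 13 to 17, where 3798 to 4853 of all genes were called. At 6 months edgeR called 0 with each library left out, and DESeq2 1 (0.303% of all genes). At 12 months against 9 months the count was 0 to 5 with each library left out, 5 without 9 month replicate 5 (1.79% of all genes) and 2 without 12 month replicate 2 (0.147% of all genes), all lower at 12 months, and 4 with DESeq2 (1.62% of all genes). Of the chain ratios 0 of 9 passed, and 2 when 9 and 12 months were set against 3 and 6 months. At 4 against 5 libraries those 2 pairs had the smallest p possible (exact permutation test, p = 0.0159). With only those 2 at that p, the adjusted p over 9 pairs is 0.0714, so that test could not call them. No other called value changed direction in these settings. No paired analysis was possible because the labels give no replicate number shared between ages. The number of expressed genes was 39 at a mean of 0.5 CPM and 31 at 5 CPM. Counts of 10851519 or more per library limit the lowest genes most, such as Col9a3, which had at most 24.2 estimated counts in a library.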
